A study of Mus musculus with 8 samples.

Results

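The 58 genes described here act in mitosis, the stage of the cell cycle in which duplicated chromosomes are separated. They were chosen by name from a list of mitotic, spindle and kinetochore genes, by a rule that uses no measured value. Earlier results of these data were known when the list was chosen. All 58 were found among the 54838 Ensembl genes counted in these libraries, 57 by their GENCODE M21 symbol and *Sgol1* under its newer symbol *Sgo1*, and all 58 were among the 12405 genes that passed the filter on low counts. By role, 16 are regulators of mitotic entry and exit, 19 act on the spindle or in cytokinesis, 16 belong to the kinetochore and its checkpoint, and 7 belong to condensin or the chromosome surface. Expression was measured by RNA-seq in *iMLL-AF9* cells, mouse bone marrow cells in which a doxycycline-inducible allele expresses the leukemic fusion MLL-AF9. The compound tested, IOX5, inhibits the HIF prolyl hydroxylases (PHDs), and DMSO is its vehicle. Each group had 4 samples, numbered 1 to 4, all labelled WT in genotype, bone marrow in tissue and leukemic stem cells in cell type. The study's mice were C57BL/6. The series design text calls the cells preleukemic. Neither the dose nor the time of exposure is stated for these samples, and nothing states whether the 4 samples of a group came from separate animals or cultures, so the p-values measure the spread between these samples, which may be technical. Reads assigned to genes numbered 12343770 to 14116054 in DMSO libraries and 11351507 to 12708888 in IOX5 libraries. In both groups samples 3 and 4 were nearer to each other than any other pair was. By the chi-square of counts over genes per degree of freedom, DMSO 3 and 4 differed from each other by 2.16 and all other DMSO pairs by 13.9 to 22.6, and IOX5 3 and 4 differed by 9.17 and all other IOX5 pairs by 18.2 to 40.9. The 3 highest values in IOX5, 29.3 to 40.9, were the pairs that include IOX5 2. No label gives a reason for either.

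Mitosis is driven by CDK1 with its cyclins and by the Polo and Aurora kinases, and it ends when the anaphase-promoting complex (APC/C) marks cyclin B and securin for destruction and separase opens the cohesin rings that hold sister chromatids together. Kinesin motors build the spindle, kinetochores attach chromosomes to it, the spindle checkpoint holds anaphase back until all are attached, and condensin compacts the chromosomes. Transcripts of most of these genes are made late in the cell cycle, so that in a mixed population their level depends on how many cells are dividing.

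Mitotic transcripts were lower after IOX5. Summed over the 58 genes, expression in CPM (read counts scaled by library size with TMM factors) was 8739, 8991, 9652 and 9425 in DMSO 1 to 4 and 7179, 6449, 7335 and 7592 in IOX5 1 to 4. Every IOX5 sample lay below every DMSO sample, and the mean went from 9202 ± 413 to 7139 ± 491 CPM (SD, n = 4 each), a change of -22.4%. Fewer dividing cells and less mitotic RNA per cell cannot be told apart in such bulk samples.

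Gene by gene, edgeR's quasi-likelihood test called 20 of the 58 genes lower and 0 higher, at a Benjamini-Hochberg adjusted p under 0.05 over the 12405 genes tested. The background was 1.25% of all genes tested called lower (155 genes) and 0.774% called higher (96 genes), or 108 and 101 genes when libraries were scaled by their upper quartiles. At an unadjusted p under 0.05, edgeR had 46 of the 58 genes lower and 0 higher, against 11.2% and 8.98% of all genes tested. DESeq2 called 38 lower (5.75% of all genes it tested) and 0 higher, and limma's voom called 39 lower (4.92%) and 0 higher. The log2 fold change of IOX5 over DMSO was below 0 for 56 of the 58 genes, against 47.2% of all genes tested, and its median was -0.34, against 0.017 over all genes tested. In 38 of the 58 genes every IOX5 sample was below every DMSO sample, which held for 8.3% of all genes tested, and the reverse, which held for 5.98% of all genes tested, for 0 of the 58. All 20 called genes were among these 38, and they fell by 17.9% to 40.5%.

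Samples with the same replicate number deviated together from their group means (correlations of 0.636 to 0.758), so the comparison was also fitted with that number as a block. DMSO 4 resembled another IOX5 sample slightly more (0.685) than IOX5 4 (0.636), so the data do not tell numbers 3 and 4 apart. With the block, 48 of the 58 genes were called lower and 0 higher, against 9.43% of all genes tested called lower and 11.2% called higher, and these 48 included all 20. A block of only 2 levels, samples 1 and 2 against samples 3 and 4, gave 40 members lower and 0 higher, all 20 included, against 4.3% of all genes tested lower and 4.11% higher. With samples 3 and 4 of each group summed to 1 library, edgeR called 0 members and 0 genes of the whole table, with 41 members lower and 0 higher at an unadjusted p under 0.05, against 8.07% and 7.26% of all genes tested, and the median of the 58 genes was -0.33. The calls without the block were lost when some libraries were left out. With either DMSO 3, DMSO 4 or IOX5 3 left out, edgeR called 0 members and 0 genes of the whole table, while 40, 40 and 45 members, respectively, were lower at an unadjusted p under 0.05, against 8.58%, 6.97% and 9.33% of all genes tested. Without DMSO replicate 1 or 2, 2 and 3 members were called, without IOX5 replicate 1 or 2, 10 and 12, and without IOX5 replicate 4, 29, against 0.0319%, 0.0558%, 0.279%, 0.605% and 2.64% of all genes tested called lower. DESeq2 was not run on these smaller or summed sets. The median of the 58 genes stayed between -0.28 and -0.39 over every alternative run.

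**Figure D1:**
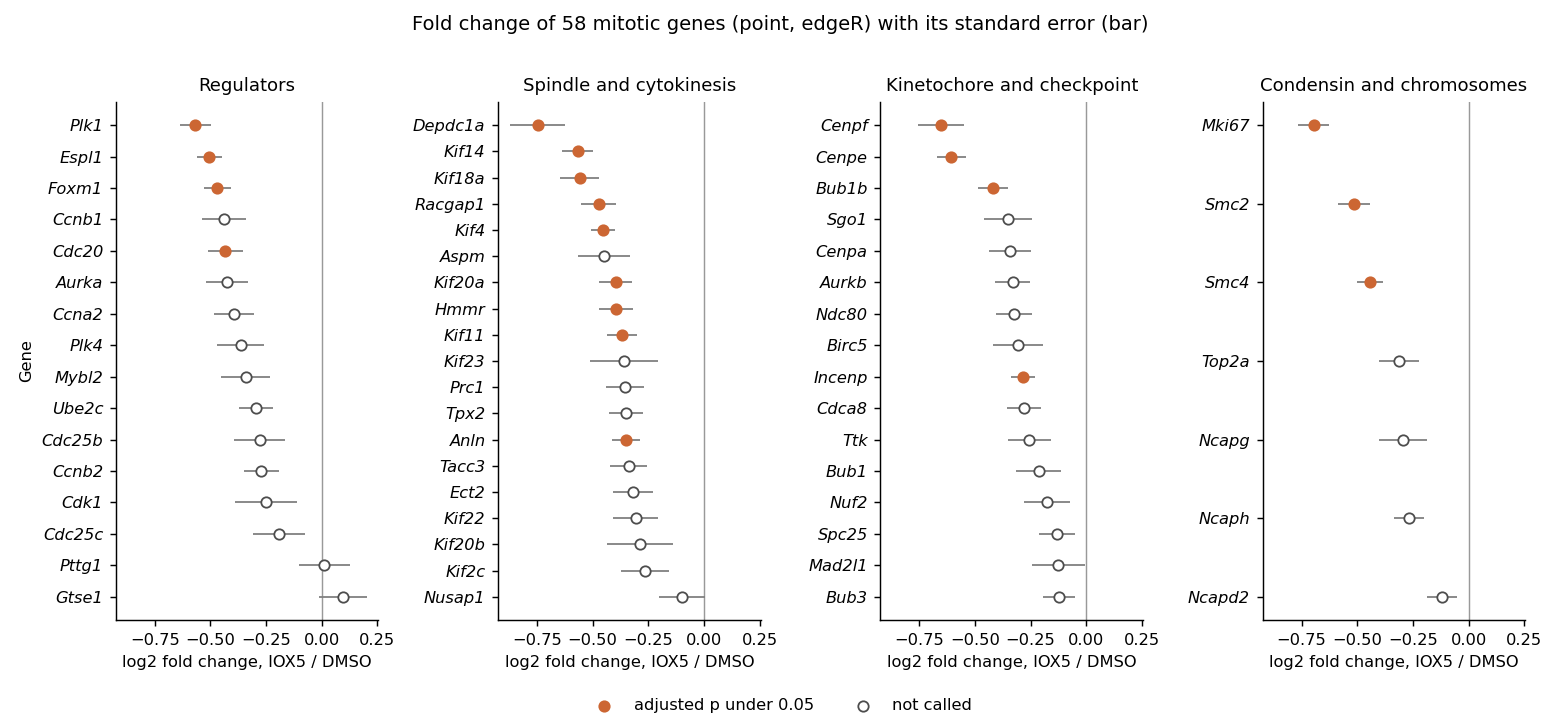
Log2 fold change of IOX5 over DMSO (x axis, point) with its standard error (bar) for each of the 58 genes (y axis), in 4 role groups, with filled points for the 20 genes called at an adjusted p under 0.05 by edgeR. All points lie left of 0 except *Pttg1* at 0.012 and *Gtse1* at 0.094, and the leftmost is *Depdc1a* at -0.75.

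Promoter sequence is shown for 1 called gene of each role group, since promoters of mitotic genes are known for a few short motifs whose shares are given further on. Each sequence holds the 250 bases before the RefSeq start (GRCm38.p6), 5′ to 3′ on the gene's strand, with -1 as the base next to the start. Capitals mark matches to the cell cycle genes homology region (CHR, TTTGAA or TTCGAA), the CCAAT box (CCAAT) and the E2F site (TTCCCGC or TTGGCGC), on either strand. The windows are chr15:102296043-102296292 for *Espl1*, chr2:109280488-109280737 for *Kif18a* and chr3:135212313-135212562 for *Cenpe*, all on the plus strand, and chr7:135716380-135716629 for *Mki67* on the minus strand. GENCODE M21 starts *Espl1* and *Cenpe* slightly earlier, so the last 27 and 26 bases of those windows lie inside its gene models.
Espl1: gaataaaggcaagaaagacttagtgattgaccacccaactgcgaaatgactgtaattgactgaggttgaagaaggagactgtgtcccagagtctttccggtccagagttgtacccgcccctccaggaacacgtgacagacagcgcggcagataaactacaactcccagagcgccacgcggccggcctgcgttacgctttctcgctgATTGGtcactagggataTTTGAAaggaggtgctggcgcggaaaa
Kif18a: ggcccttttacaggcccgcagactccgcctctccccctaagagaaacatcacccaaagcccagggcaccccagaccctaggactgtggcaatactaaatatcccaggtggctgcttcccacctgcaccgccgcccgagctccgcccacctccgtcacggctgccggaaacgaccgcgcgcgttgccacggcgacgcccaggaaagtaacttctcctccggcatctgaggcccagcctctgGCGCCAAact
Cenpe: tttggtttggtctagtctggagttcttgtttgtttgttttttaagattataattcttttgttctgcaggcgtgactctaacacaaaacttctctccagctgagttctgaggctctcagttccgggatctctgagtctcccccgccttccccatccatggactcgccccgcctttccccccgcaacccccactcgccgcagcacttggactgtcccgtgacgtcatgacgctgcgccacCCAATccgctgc
Mki67: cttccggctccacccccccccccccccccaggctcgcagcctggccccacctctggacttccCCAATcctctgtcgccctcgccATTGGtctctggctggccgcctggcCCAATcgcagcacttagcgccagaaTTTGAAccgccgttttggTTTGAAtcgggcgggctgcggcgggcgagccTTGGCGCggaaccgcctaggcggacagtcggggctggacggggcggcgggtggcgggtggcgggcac
The *Espl1* window has a CCAAT box in reverse, ATTGG, at -44 and a CHR at -27. In *Mki67*, 3 CCAAT boxes, that at -166 in reverse and those at -188 and -141 forward, precede a CHR at -116 and another at -98, with an E2F match at -67. *Cenpe* has a CCAAT box at -12 and no CHR match in these letters, and *Kif18a* has only an E2F match, in reverse, at -10.

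Of the 16 regulators of entry and exit, 14 had a log2 fold change below 0. Of these 16, edgeR called 4 lower (*Plk1*, *Espl1*, *Foxm1* and *Cdc20*) and 13 with the replicate block, with a median log2 fold change of -0.35. *Plk1*, the Polo kinase that drives centrosome maturation and mitotic entry, was at 120.1, 127, 126 and 113 CPM in DMSO 1 to 4 and at 75.8, 80.0, 82.0 and 89.9 CPM in IOX5 1 to 4. The lowest DMSO sample was well above the highest IOX5 sample, and *Plk1* fell by 32.5% (log2 fold change -0.57, SE 0.070, edgeR adjusted p = 0.0163). *Espl1* encodes separase, the protease that cleaves cohesin at anaphase. Its values, 84.0, 82.1, 85.0 and 81.1 CPM in DMSO and 56.5, 56.1, 62.6 and 58.7 CPM in IOX5, were close together within each condition and far apart between them, and it fell by 29.5% (-0.51, SE 0.056, edgeR adjusted p = 0.0153). *Foxm1*, a transcription factor that activates genes of late G2 and mitosis, went from 65.4, 66.3, 64.4 and 61.8 to 43.0, 48.0, 48.6 and 46.7 CPM. Its groups were far apart, and *Foxm1* fell by 27.8% (-0.47, SE 0.060, edgeR adjusted p = 0.0173). For *Cdc20*, the activator through which the APC/C destroys securin and cyclin B, the 4 DMSO samples held 133, 135, 141 and 143 CPM and the 4 IOX5 samples 101, 90.0, 101 and 116 CPM, with IOX5 4 nearest to the controls (-0.43, SE 0.080, edgeR adjusted p = 0.0389). Over all alternatives (edgeR settings, DESeq2 and voom), the largest adjusted p was 0.158 for *Plk1* and *Espl1*, 0.165 for *Foxm1* and 0.174 for *Cdc20*. None of the called members of the 58 stayed under 0.05 in every alternative.

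CDK1 and its B-type cyclins were not called by edgeR without the block, while DESeq2 called *Ccnb1* and *Ccnb2*. *Cdk1*, the kinase at the centre of mitotic entry, was at 152, 143, 177 and 187 CPM in DMSO and 129, 110.1, 143 and 171 CPM in IOX5, and the groups overlapped, with IOX5 3 and IOX5 4 above the lowest DMSO sample. Its log2 fold change was -0.25 (SE 0.14, edgeR adjusted p = 0.359). Every IOX5 sample was below the DMSO sample of its own number, and with the block the adjusted p was 0.0140 (range over all alternatives 0.0104 to 0.643). *Ccnb1*, cyclin B1, was at 183 ± 17.0 CPM in DMSO and 135 ± 15.6 CPM in IOX5 (SD, n = 4), with no overlap and an edgeR adjusted p of 0.0560, or 0.000650 with the block (range 9.74e-05 to 0.198). The log2 fold change of *Ccnb2*, the other B-type cyclin listed, was -0.27 (SE 0.078, edgeR adjusted p = 0.103), and with the block its adjusted p was 0.0204 (range 0.00395 to 0.238). *Ccnb2* had the highest level per length among the regulators, 75.4 in DMSO and 62.5 in IOX5 as RPKM (CPM per kilobase of exon). *Aurka*, the Aurora kinase of the centrosome, was at 119 ± 8.55 and 88.7 ± 10.5 CPM, again without overlap, with an edgeR adjusted p of 0.0545, or 0.000934 with the block (range 0.000276 to 0.190).

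*Pttg1* and *Gtse1* were the only genes of the 58 with a fold change above 0. *Pttg1* encodes securin, which holds separase inactive until anaphase, and was at 17.6, 15.2, 16.2 and 14.8 CPM in DMSO and 18.5, 14.6, 14.5 and 16.8 CPM in IOX5. These ranges coincided (log2 fold change 0.012, SE 0.12, edgeR adjusted p = 0.968), and the sign of *Pttg1* turned under 8 of the alternatives. *Gtse1*, which binds microtubules and restrains p53, was at 61.8, 69.6, 56.2 and 57.3 CPM in DMSO and 55.3, 66.8, 75.7 and 63.8 CPM in IOX5, highest in IOX5 3 (0.094, SE 0.11, edgeR adjusted p = 0.663). Thus separase and its inhibitor, listed side by side, had log2 fold changes of -0.51 and 0.012, a difference that was not tested.

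**Figure D2:**
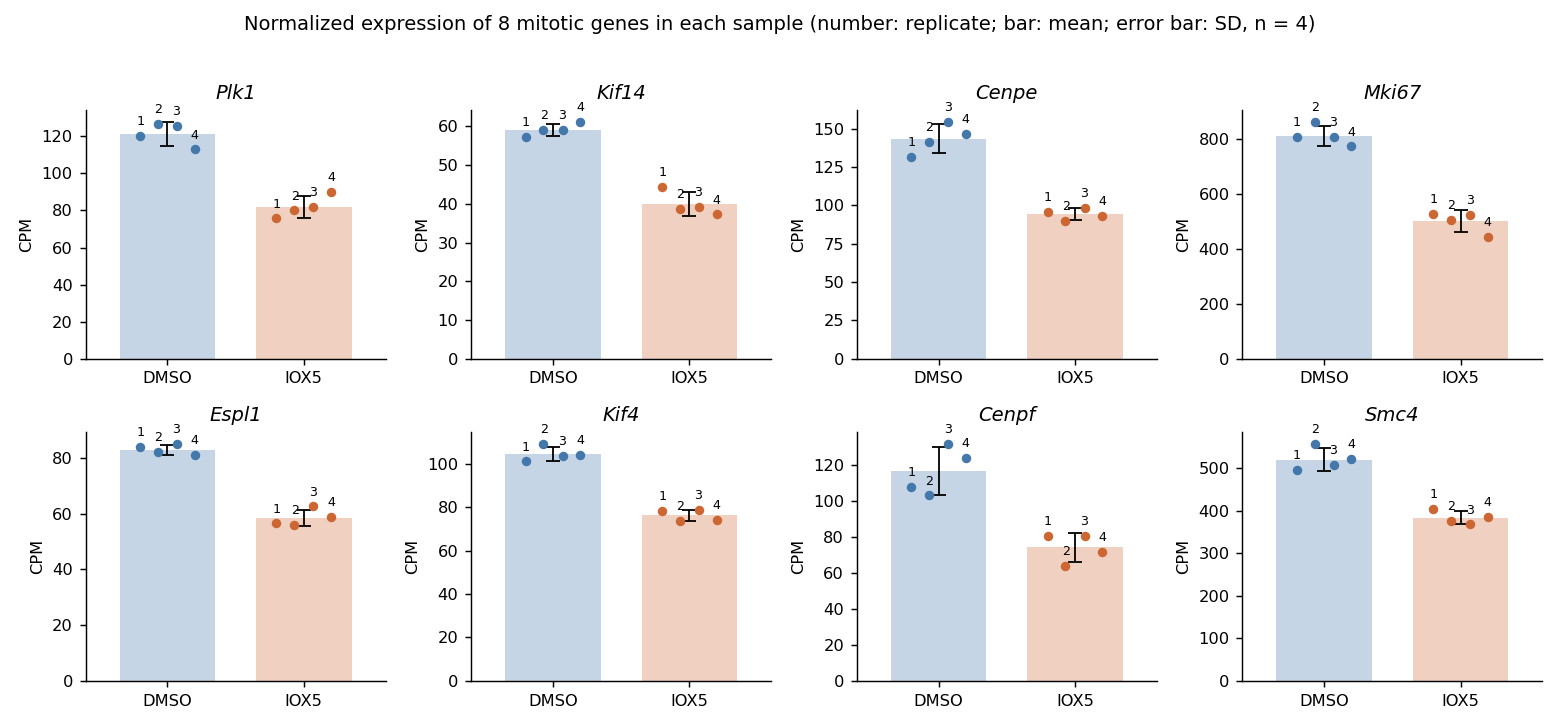
Normalized expression (CPM, y axis from 0) of 8 called genes in each DMSO and IOX5 sample (points, numbered by replicate), with the mean (bar) and SD (error bar, n = 4). In every panel all 4 IOX5 points lie below all 4 DMSO points, as for *Espl1* with 56.5, 56.1, 62.6 and 58.7 against 84.0, 82.1, 85.0 and 81.1 CPM.

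Spindle and cytokinesis genes had the largest share of calls (47.4%, against 25% to 42.9% in the other groups), a difference that was not tested. Of these 19, 9 were called lower, 18 with the block, and the median log2 fold change was -0.36. Of its 9 kinesins 5 were called. *Kif14*, a motor of the midzone needed in cytokinesis, went from 57.3, 59.1, 59.1 and 61.2 CPM in DMSO to 44.4, 38.7, 39.3 and 37.3 CPM in IOX5. It fell by 32.5% (-0.57, SE 0.069, edgeR adjusted p = 0.0157), with IOX5 1 the highest of the treated samples. *Kif4*, a chromokinesin, was at 101, 109, 104 and 104 CPM in DMSO and 78.4, 73.8, 78.6 and 74.1 CPM in IOX5, with hardly any spread in either group, and fell by 27.0% (edgeR adjusted p = 0.0157). *Kif18a*, which damps the oscillation of chromosomes at the plate, had the lowest level per length of the 58 genes (2.59 and 1.76 RPKM). Its 4 DMSO values of 24.0, 24.5, 27.4 and 25.9 CPM and 4 IOX5 values of 17.0, 16.6, 18.9 and 16.6 CPM did not overlap (-0.56, SE 0.088, edgeR adjusted p = 0.0254). *Kif11*, the motor that pushes the spindle poles apart, was at 242 ± 12.3 CPM in DMSO and 188 ± 13.2 CPM in IOX5 (SD, n = 4) and fell by 22.6% (edgeR adjusted p = 0.0385).

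Among the cytokinesis genes, *Racgap1*, the GTPase-activating subunit of centralspindlin, was at 132, 146, 157 and 145 CPM in DMSO and 96.7, 98.1, 109.7 and 113 CPM in IOX5. It fell by 28.0% (-0.47, SE 0.077, edgeR adjusted p = 0.0260). *Anln*, anillin, a scaffold of the cleavage furrow, fell by 21.5%, from 127 ± 6.40 to 99.6 ± 5.30 CPM (SD, n = 4, edgeR adjusted p = 0.0360). *Depdc1a* had the largest fold change of the 58 genes, from 18.2, 19.1, 22.8 and 17.4 CPM in DMSO to 13.3, 10.7, 11.02 and 11.2 CPM in IOX5 (-0.75, SE 0.12, edgeR adjusted p = 0.0266). It was counted from 1566 reads over the 8 libraries, DMSO 3 was its highest sample, and the groups did not overlap. The spindle genes furthest from a call were *Nusap1* and *Kif20b*. *Nusap1*, which bundles microtubules near chromosomes, was at 79.7, 81.4, 106 and 95.5 CPM in DMSO and 84.0, 76.1, 87.9 and 90.6 CPM in IOX5, and the groups overlapped (-0.10, SE 0.10, edgeR adjusted p = 0.638). *Kif20b*, a cytokinesis kinesin, was at 109 ± 16.4 and 89.0 ± 15.4 CPM, overlapping without the block (edgeR adjusted p = 0.321) and lower in each of the 4 same-numbered pairs (adjusted p = 0.0122 with the block, range 0.00862 to 0.559). *Tpx2*, which activates Aurora A on the spindle and had the highest RPKM of the group, was the uncalled member nearest to the threshold (edgeR adjusted p = 0.0543, 0.00300 with the block, range 0.00197 to 0.204).

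All 16 kinetochore and checkpoint genes had a log2 fold change below 0, from -0.65 to -0.12. Of the 16, 4 were called lower (*Cenpe*, *Cenpf*, *Bub1b* and *Incenp*) and 11 with the block, and the median log2 fold change was -0.30. *Cenpe*, the kinesin that carries chromosomes to the spindle equator, was at 131, 142, 154 and 147 CPM in DMSO and 95.7, 89.7, 98.6 and 93.0 CPM in IOX5. It fell by 34.3% (-0.61, SE 0.065, edgeR adjusted p = 0.0144), and the 4 IOX5 samples were close together. *Cenpf*, a large protein of the outer kinetochore, went from 108, 103, 132 and 124 CPM to 80.6, 64.2, 80.6 and 72.1 CPM. It fell by 36.4%, the most in the group (-0.65, SE 0.10, edgeR adjusted p = 0.0254), with IOX5 2 the lowest sample. *Bub1b*, which encodes the checkpoint protein BubR1, fell from 159 ± 6.56 to 119 ± 8.09 CPM (SD, n = 4, edgeR adjusted p = 0.0254). *Incenp*, the scaffold of the chromosomal passenger complex, had the highest RPKM of the group and the smallest called change, with 239, 246, 253 and 254 CPM in DMSO and 199, 198, 199 and 219 CPM in IOX5 (-0.28, SE 0.055, edgeR adjusted p = 0.0429).

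The other checkpoint and centromere genes were not called by edgeR without the block. *Mad2l1*, which encodes the checkpoint protein MAD2, was at 124, 127, 155 and 147 CPM in DMSO and 129, 100.4, 136 and 141 CPM in IOX5, and IOX5 1 was above DMSO 1 (-0.13, SE 0.12, edgeR adjusted p = 0.598). *Spc25*, a subunit of the NDC80 complex that grips microtubules, was at 46.9 ± 3.09 and 42.8 ± 3.73 CPM (edgeR adjusted p = 0.405). Neither gene was called with the block. *Bub1*, a checkpoint kinase, had a log2 fold change of -0.21 (SE 0.10, edgeR adjusted p = 0.271), and passed the test with the block (adjusted p = 0.0384, range 0.0384 to 0.521). *Cenpa*, the histone variant that marks the centromere, was at 156 ± 14.0 and 123 ± 12.9 CPM with no overlap (edgeR adjusted p = 0.0888, 0.00331 with the block, range 0.00151 to 0.267). Within the passenger complex, *Aurkb*, its kinase, was at 126, 124, 131 and 126 CPM in DMSO and 99.1, 87.4, 112 and 103 CPM in IOX5 (edgeR adjusted p = 0.0627, 0.00391 with the block, range 0.00232 to 0.202). *Birc5*, survivin, was at 97.4, 117, 122 and 115 CPM in DMSO and 84.8, 84.6, 84.4 and 111 CPM in IOX5. There IOX5 1 to 3 were nearly equal and IOX5 4 lay inside the DMSO range (edgeR adjusted p = 0.171, 0.0159 with the block, range 0.00655 to 0.360).

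Among condensin and chromosome-surface genes were the highest levels per length of the 58, those of *Top2a* and *Smc4*. Of the 7, 3 were called lower (*Mki67*, *Smc2* and *Smc4*) and 6 with the block, and the median log2 fold change was -0.31. *Mki67*, whose product coats mitotic chromosomes and is a common marker of proliferating cells, was at 805, 861, 806 and 772 CPM in DMSO and 528, 506, 524 and 444 CPM in IOX5. IOX5 4 was its lowest sample, and it fell by 38.3% (-0.70, SE 0.070, edgeR adjusted p = 0.0143), the smallest adjusted p of the 58 genes. *Smc2* and *Smc4* encode the pair of ATPases that forms the core of both condensin complexes. *Smc4* was at 496, 556, 507 and 520.5 CPM in DMSO and 403, 375, 368 and 386 CPM in IOX5, and fell by 26.3% (-0.44, SE 0.058, edgeR adjusted p = 0.0181). *Smc2* was at 281, 307, 306 and 311 CPM in DMSO and 219.8, 185, 214 and 225 CPM in IOX5, and fell in every pair (-0.51, SE 0.073, edgeR adjusted p = 0.0209). The 3 condensin I subunits that bind this core were not called by edgeR without the block. *Ncaph* had a log2 fold change of -0.27 without overlap and was called with the block and by DESeq2. *Ncapg* was at 136 ± 9.47 and 111 ± 15.9 CPM (edgeR adjusted p = 0.172, 0.0190 with the block, range 0.00946 to 0.389), and *Ncapd2* was at 363, 363, 377 and 378 CPM in DMSO and 326, 311, 358 and 369 CPM in IOX5 with overlapping groups (-0.12, SE 0.066, edgeR adjusted p = 0.354). *Top2a*, the topoisomerase that untangles sister chromatids, had the highest RPKM of all 58 genes (117 in DMSO, 93.8 in IOX5). It was at 1029, 951, 1116 and 1106 CPM in DMSO and 899.8, 718, 867 and 899 CPM in IOX5, with no overlap (edgeR adjusted p = 0.0990, 0.00527 with the block, range 0.00467 to 0.298).

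The mitotic genes were lower in each pair of same-numbered samples, at unequal size. Of the 58 genes, 51 were lower in IOX5 than in the DMSO sample of the same number in all 4 pairs, against 19.8% of all genes tested. The median log2 ratio over the 58 genes was -0.26, -0.47, -0.40 and -0.29 in pairs 1 to 4, and that over all genes tested was between -0.00079 and 0.035. Pair 2 was the furthest from 0, and IOX5 2 was the lowest treated sample for 43 of the 58 genes. IOX5 4 was the highest treated sample for 34 genes, and DMSO 1 the lowest control for 33. IOX5 2 also had the smallest library and the largest share of unaligned reads (4.86%, against 2.98% to 3.70% in the other samples), and the share of mitochondrial reads was 1.37% to 1.54% in IOX5 samples against 1.27% to 1.37% in DMSO samples. The part of these in the result was not tested. Without IOX5 replicate 2 the median of the 58 genes was -0.28. The genes varied little within a group, with a median SD of 0.095 in DMSO and 0.14 in IOX5 on the log2 CPM scale, against 0.14 and 0.19 for all genes tested. Their median level was also higher, at 19 RPKM against 7.2 RPKM for all genes tested, and 51 of the 58 were above the latter. The part of level in this smaller spread was not tested.

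**Figure D3:**
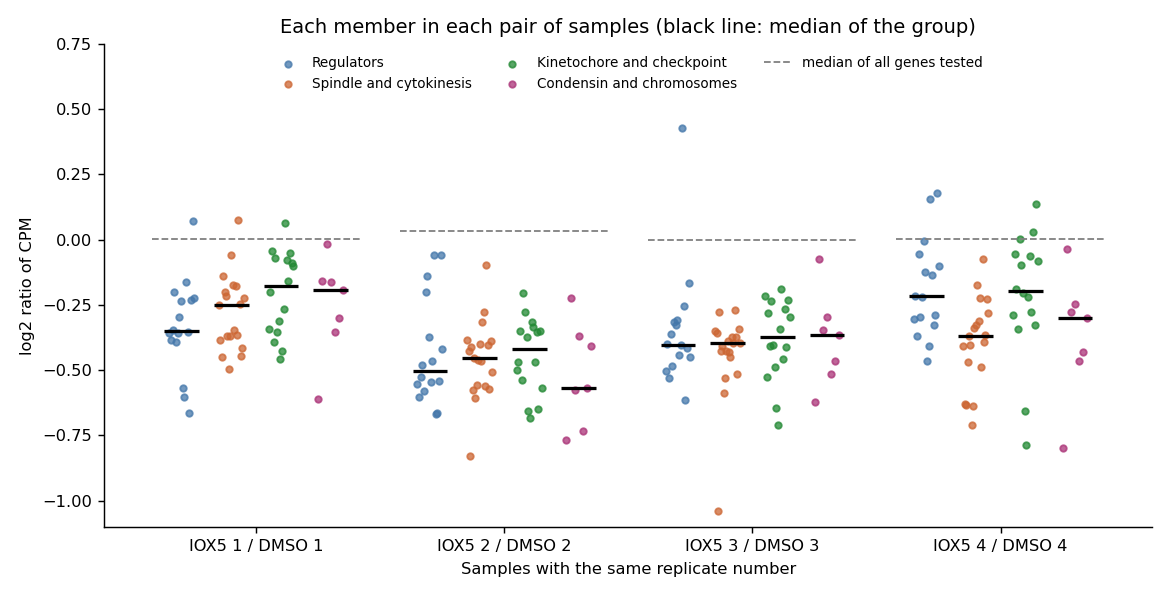
Log2 ratio of CPM (y axis) between the IOX5 and DMSO samples that share a replicate number (x axis), 1 point per gene, colored by role group, with group medians as black lines and the median of all genes tested as a dashed line. All 16 group medians lie below 0, from -0.57 for condensin in pair 2 to -0.18 for the kinetochore in pair 1.

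Other genes of chromosome segregation were examined from lists of 119 genes, all tested, of which edgeR called 12 lower and 1 higher. The list of APC/C genes, which holds its subunits and also the activator *Fzr1*, the ubiquitin-conjugating enzyme *Ube2s* and the inhibitor *Fbxo5*, was the list with the median nearest to 0, at -0.065. Of its 17 genes, edgeR called 0 in either direction, with 4 lower and 0 higher at an unadjusted p under 0.05, where 11.2% of all genes tested were lower. DESeq2 called 1 lower, and the block 3. Kinetochore genes outside the 58 had a median of -0.19, with 3 of 32 called lower and 10 with the block. *Knl1*, the kinetochore scaffold that recruits the BUB proteins, was at 111, 116, 128 and 129 CPM in DMSO and 86.5, 66.5, 81.8 and 66.0 CPM in IOX5. The groups did not overlap, and *Knl1* fell by 37.8% (-0.69, SE 0.10, edgeR adjusted p = 0.0254). Of 11 cohesin genes, 3 were called lower and 8 with the block, and the median was -0.26. *Smc3* and *Rad21*, parts of the ring that separase opens, fell by 25.3% and 18.9% (edgeR adjusted p = 0.0308 and 0.0331). The 3 subunits particular to condensin II had a median of -0.11, with 0 called by edgeR and 1 at an unadjusted p under 0.05, by DESeq2 and with the block, each time lower.

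Of 15 further mitotic regulators, 3 were called lower and 10 with the block, and the median was -0.23. *Nek2*, a kinase that splits centrosomes, fell by 32.0%, and *Arhgap11a*, a GTPase-activating protein, by 26.8% (edgeR adjusted p = 0.0203 and 0.0153). Among 28 centrosome and spindle genes, 3 were called lower, 16 with the block, and 1 was called higher. The gene that rose was *Psrc1*, a microtubule-binding protein, at 15.7, 17.3, 16.6 and 16.3 CPM in DMSO and 25.3, 34.2, 50.2 and 38.5 CPM in IOX5. It rose in every pair (log2 fold change 1.17, SE 0.18, edgeR adjusted p = 0.0254), although the IOX5 samples ranged from 25.3 to 50.2 CPM. *Stil*, needed for centriole duplication, fell by 24.3% (edgeR adjusted p = 0.0331). For the 13 subunits of DREAM, MuvB and NF-Y, complexes that bind mitotic promoters, edgeR called 0, with 7 lower and 0 higher at an unadjusted p under 0.05 (all genes tested 11.2% and 8.98%). DESeq2 called 2 of these 13 lower and the block 4, and their median was -0.17. Of 38 S phase genes, 8 were called lower, 29 with the block, and all 38 had a log2 fold change below 0, with a median of -0.28. Examples were *Rrm2*, a subunit of ribonucleotide reductase, at 382 ± 22.6 and 269 ± 29.8 CPM, and *Uhrf1*, which maintains DNA methylation after replication, at 292 ± 14.6 and 214 ± 12.7 CPM (edgeR adjusted p = 0.0294 and 0.0209). The difference between the mitotic and S phase medians was not tested. Over these lists together, 20 of 157 genes were called lower, and this count was 0, 1, 0 and 0 with DMSO 1, 2, 3 or 4 left out and 3, 8, 0 and 35 with IOX5 1, 2, 3 or 4 left out, while at least 63 were lower at an unadjusted p under 0.05 each time (6.97% to 13.1% of all genes tested).

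**Figure D4:**
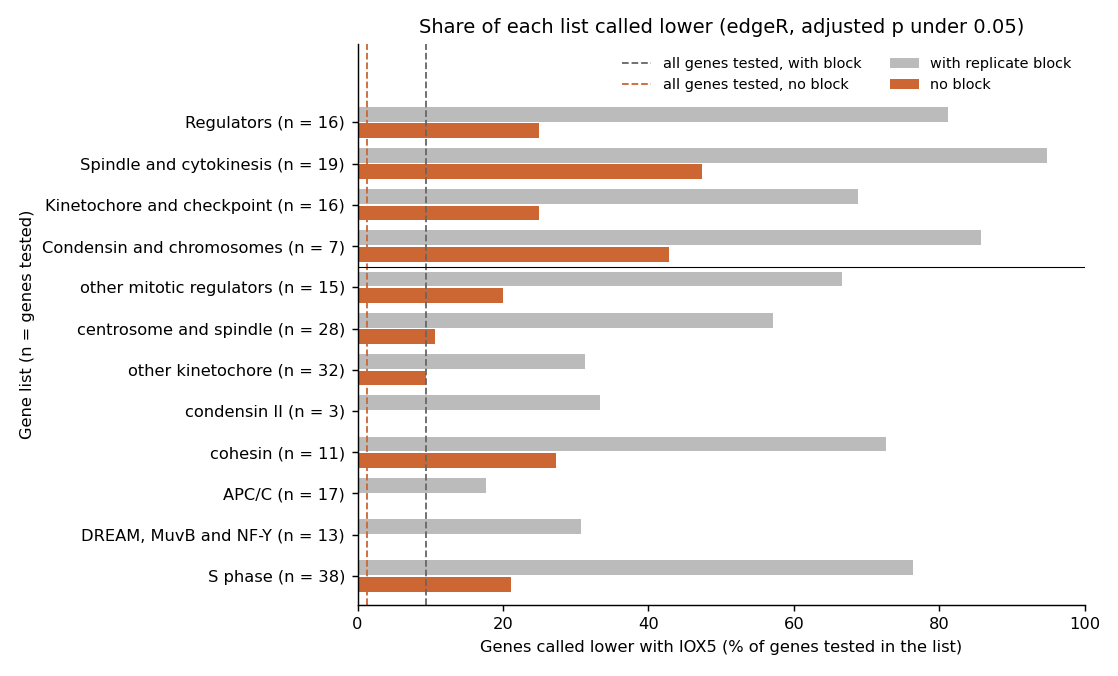
Share of genes called lower with IOX5 (x axis, % of genes tested) in the 4 groups of the 58 genes (above the line) and in 8 further lists (y axis, n = genes tested), without (orange) and with (grey) the replicate block by edgeR. Dashed lines give the shares of all genes tested, 1.25% and 9.43%, and the APC/C list is at 0% and 17.6%.

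CHR and CCAAT matches were common in the promoters of the 58 genes. RefSeq promoter windows, from 250 bases before to 50 after a start, were found for 50 of the 58 genes, and for 41 of these a RefSeq start lay within 100 bases of the GENCODE start. For 3 members the nearest RefSeq start was further than 1000 bases away. All 50 genes were counted, among them *Kif4* and *Kif14*, whose windows lie inside their gene models and hold a CHR match. A CHR match was present in 37 of 50 (74%), against 16.7% of the 9320 tested genes with a window and 21.7% of all 27025 genes with one. A CCAAT box was present in 36 of 50 (72%), against 43.5% and 41.1%, and both together in 33 of 50 (66%), against 7.1% and 8.61%. The E2F site was present in 9 of 50 (18%), against 14.3% and 7.79%. Its form TTGGCGC shares letters with a reversed CCAAT box where an A precedes it, so that a single stretch can count for both. In the S phase list, CHR matches were in 6 of 30 windows (20%) and E2F matches in 16 (53.3%). Of the called members with a window, 14 of 16 (87.5%) had a CHR, and of those not called 23 of 34 (67.6%). Counted in the 250 bases before the start only, CHR was in 38% of the 50 genes and 14.9% of tested genes. In those bases it was in 8 of the 16 called members (50%) and 11 of the 34 not called (32.4%). The difference between called and uncalled members was not tested. Several matches lie just after the start, such as those at 31 in *Plk1* and 3 in *Cenpf*. These shares describe letters in a window, not binding.

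**Figure D5:**
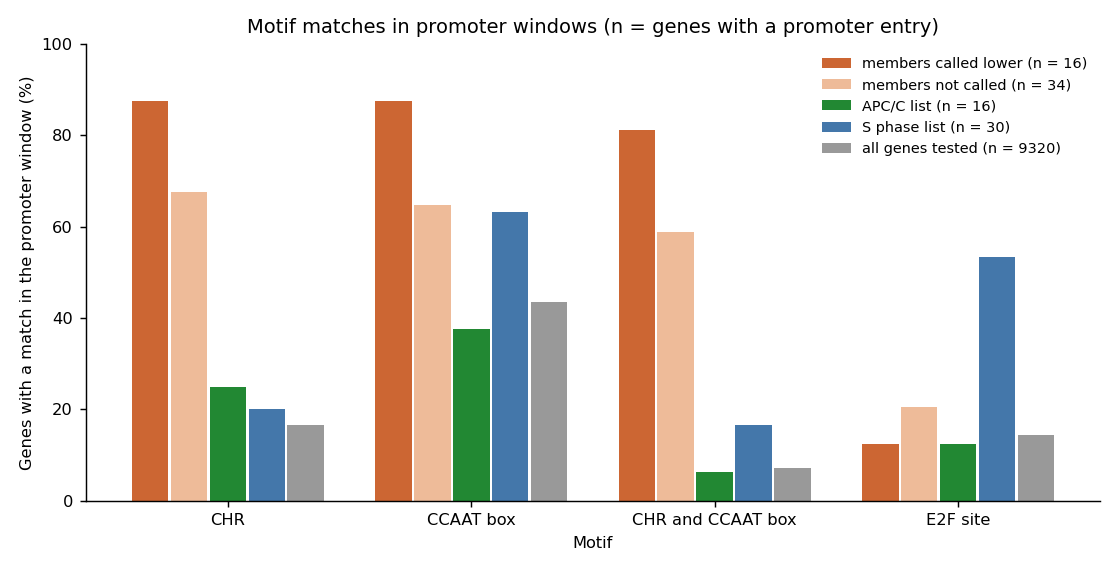
Share of genes (y axis, %) whose 300-base promoter window holds a CHR, a CCAAT box, both, or an E2F site (x axis), for called and uncalled members, the APC/C and S phase lists and all genes tested (n = genes with a promoter entry). CHR matches reach 87.5% in called and 67.6% in uncalled members against 16.7% of all genes tested, and E2F matches reach 53.3% in the S phase list.

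Lineage markers tended the other way. Of 57 marker genes listed for 9 cell types, 40 were tested. Without the block edgeR called 0 of them in either direction, with 6 higher and 0 lower at an unadjusted p under 0.05, against 8.98% and 11.2% of all genes tested, and DESeq2 called 4 higher, against 4.67% of the genes it tested. With the block 24 were called higher and 0 lower, against 11.2% of all genes tested called higher, and with the block of 2 levels 9 and 0, against 4.11%. The part of these shifts in the fall of the mitotic genes was not tested.

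Markers of the labelled cells were present, at uneven levels. All 10 leukocyte and MLL-AF9 progenitor genes were tested, including *Ptprc* (449 ± 41.6 and 439 ± 82.5 CPM in DMSO and IOX5), *Hoxa9* (250.2 ± 29.3 and 242 ± 23.1 CPM) and *Meis1* (104 ± 9.44 and 106 ± 13.7 CPM). Stem and progenitor markers in the same list differed between samples. *Cd34* was at 26.0, 23.2, 133 and 153 CPM in DMSO and 40.4, 35.4, 225 and 231 CPM in IOX5, several times higher in samples 3 and 4 than in samples 1 and 2. *Flt3* was close to the detection limit, at 0.776, 0.467, 2.19 and 2.16 CPM in DMSO and 0.961, 1.24, 4.22 and 4.68 CPM in IOX5. *Kit* and *Myb*, with *Cd34* and *Flt3*, were higher with the block (log2 fold changes in that fit 0.40, 0.36, 0.65 and 0.96), and none of them was called by edgeR without it. The median of the list without the block was 0.31. Summed, the list was at 2738, 2377, 4757 and 4568 CPM in DMSO 1 to 4 and 3139, 2762, 5534 and 5480 CPM in IOX5 1 to 4. *Mpo* gave the largest part of that sum, 1339, 984, 3380.4 and 3077 CPM in DMSO and 1565, 1141, 3882 and 3915 CPM in IOX5, and 6 of the 10 were higher with the block. For mast cell and basophil genes, 6 of 7 were tested and all 6 were higher with the block. Their sum was 195, 141, 565 and 506 CPM in DMSO and 243, 291, 951 and 748 CPM in IOX5, with *Mcpt8* the highest in CPM over all 8 samples on average and *Gata2* above it in DMSO 1, DMSO 4 and IOX5 1. Neutrophil genes summed to 792, 1333, 578 and 530 CPM in DMSO and 929, 2080, 771 and 693 CPM in IOX5. *S100a8* had the highest mean CPM of the list over all 8 samples, though *Mmp8* was above it in samples 3 and 4 of both groups and *S100a9* in IOX5 2, *Retnlg* was at 0 in every sample, and 5 of 7 tested were higher with the block. Macrophage genes, of which *Csf1r* had the highest mean CPM and *Adgre1* the highest CPM in IOX5 1 and 2, summed to 196, 209, 149 and 182 CPM in DMSO and 237, 503, 255 and 227 CPM in IOX5, with 2 of 6 tested higher with the block. The highest sum was that of IOX5 2, the sample with the lowest mitotic sum.

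Megakaryocyte genes, led by *Itga2b*, summed to 47.0, 16.5, 65.3 and 63.1 CPM in DMSO and 69.4, 39.2, 119 and 93.3 CPM in IOX5, with 3 of 5 higher with the block. Erythroid genes, led by *Hbb-bs* except in DMSO 2, summed to 13.8, 3.89, 12.8 and 17.2 CPM in DMSO and 19.9, 7.37, 24.5 and 28.2 CPM in IOX5, with 1 of 4 tested higher with the block. Stromal and endothelial genes summed to 164, 84.0, 164 and 162 CPM in DMSO and 218, 132, 219 and 193 CPM in IOX5, nearly all from *Pecam1*, the 1 of 2 tested that was higher with the block. T cells and B cells were close to absent. None of their 8 genes passed the filter, *Cd4*, *Cd8a* and *Ms4a1* were at 0 in every sample, and the highest sum in any sample was 0.162 CPM for the T cell list, where *Cd3d* had the highest mean, and 0.233 CPM for the B cell list, where *Cd79a* had it.

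Gene length and overlapping genes were examined as properties of the 58 that could bear on their counts. Across the 58 genes, Spearman's rank correlation of the log2 fold change with exon length was -0.31, and over all genes tested it was -0.14, as descriptions across genes of the same libraries. The 29 shorter genes (exons up to 4934 bases) had a median of -0.31 with 6 called, and the 29 longer genes -0.36 with 14 called. Of all genes tested, 0.633% were called lower among those of up to 4934 bases and 2.12% among longer ones. With GC content the correlation was 0.03 for the 58 genes and 0.20 for all genes tested. Removing the trend on length and GC content left 21 called lower, against 1.46% of all genes tested. Of the 58 genes, 15 have an exon that overlaps a gene on the opposite strand, 5 of them called (*Plk1*, *Cdc20*, *Kif4*, *Kif20a* and *Kif18a*). Whether the counting separated strands is not stated. The antisense pair *Xist* and *Tsix* held 105071 and 21 reads over the 8 libraries. Without strand separation, reads in exons shared by both would count for neither, so these numbers do not settle it. The part of the overlaps in the counts was not tested. On the same strand, *Foxm1*, *Ncapd2* and *Top2a* overlap another annotated gene. Near-identical copies exist for *Ccnb1*, *Depdc1a* and *Mybl2*, and these copies held at most 21 reads over the 8 libraries, against 16000, 1566 and 10301 reads for the genes themselves. Reads that align equally well to a gene and its copy were counted for neither, so these numbers do not show how many were lost. The *Depdc1a* match spans 2421 bases at 99.67% identity, and the exons of that gene span 3323 bases.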

How the data were processed

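RNA of 4 DMSO and 4 IOX5 samples was sequenced from poly(A)-selected, directional libraries. The authors trimmed reads with cutadapt 1.18, aligned the single-end reads with HISAT2 2.2.1 to GRCm38 and deposited whole-number read counts per Ensembl gene, made with HTSeq 2.0.1. Alignment used the genome_tran index, and the release of the annotation used for counting and its strand setting are not given in the sources used here. The summary lines of each table (no feature, ambiguous, unaligned, multiply aligned), 20.6% to 22.6% of its total, were left out. Symbols came from GENCODE M21, which matched 54809 of 54838 IDs.

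Genes were filtered with edgeR's filterByExpr, scaled with TMM factors and tested with glmQLFit and glmQLFTest (edgeR 4.0.16, R 4.3.3), IOX5 against DMSO, with Benjamini-Hochberg adjustment over the 12405 genes tested. CPM are TMM-scaled, and RPKM divide CPM by exon length. DESeq2 1.42.0 and voom with sample weights (limma 3.58.1) were alternatives. The scripts were tested on simulated data. Group sizes of 4 and the depths given set the precision, which is shown by SDs and standard errors. Counts of every pair of replicates differed by more than sampling noise, least for DMSO 3 and 4 (chi-square per degree of freedom 2.16). Whether these came from 1 culture was not tested.

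The labels give both groups the replicate numbers 1 to 4 without saying what they mark. Deviations from the group means correlated between same-numbered samples at 0.758, 0.744, 0.732 and 0.636, all over 0.1, so the numbers were taken as pairs from the data. The highest correlation with an IOX5 sample of another number was 0.212, 0.0292, 0.617 and 0.685, so pairs 3 and 4 are not resolved.

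The members and lists were chosen with earlier results of these data known. Named members were, in each role group, up to 6 called genes with the smallest adjusted p, the 2 with the largest, and that with the highest RPKM, together with members above 0 and a short set of well-known genes. In other lists they were up to 2 called genes, and in marker lists the gene with the highest CPM. *Ptprc*, *Hoxa9*, *Meis1*, *Cd34*, *Flt3*, *Kit* and *Myb* were added to check the labelled cell type, and *Kif20a* and *Ncaph* were named after their values were seen. Some genes of the other lists are not reported here. Alternatives chosen after seeing the data were leaving out a pair under the block, upper-quartile factors under the block, removal of a length and GC trend with and without the block, a block of 2 levels (samples 1 and 2 against 3 and 4), and samples 3 and 4 of each group summed to 1 library.

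Promoter windows came from RefSeq (GRCm38.p6). A gene was printed where at most 30 bases of its window lay inside its GENCODE gene model. The windows of *Kif4* and *Kif14*, which had smaller adjusted p than *Kif18a*, lay inside theirs.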

Additional observations from a re-analysis of the deposited data

Results flagged for a closer look

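In each of the 36 members named by the rule given with the processing, the 4 samples of a group were examined for a sample far from the other 3, by Dixon's ratio against its 95% critical value. Of 72 such groups 3 held one, and chance gives about 1 in 20 groups. *Incenp* was at 219 CPM in IOX5 4, while IOX5 1 to 3 were between 198 and 199 CPM. *Birc5*, in the same passenger complex, was at 111 CPM in IOX5 4, while IOX5 1 to 3 were between 84.4 and 84.8 CPM. *Smc2* was at 281 CPM in DMSO 1, below the other DMSO samples at 306 to 311 CPM.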

How the results depend on the processing

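The 20 members called lower became 48 with the replicate block, 38 with DESeq2, 39 with voom and 14 without a filter on low counts, and ranged from 0 to 29 when 1 library was left out. Under the block they numbered 45, 46, 32 and 48 without pair 1, 2, 3 or 4, 46 with upper-quartile factors and 47 with the length and GC trend removed. In the whole table, the 155 genes called lower became 1170 with the block, 602 with DESeq2, 610 with voom and 73 without a filter on low counts, and 0 to 333 when 1 library was left out. Under the block they were 650, 1016, 403 and 1058 without each pair in turn, 975 with upper-quartile factors and 1680 with the trend removed. The 96 genes called higher became 1394, 489 with DESeq2, 426 with voom, and 0 to 130 when 1 library was left out, and under the block 994, 1119, 642 and 1355 without each pair, 1598 with upper-quartile factors and 1190 with the trend removed. Upper-quartile factors moved the split of lower and higher calls to 108 and 101, and removal of the trend to 181 and 64. In the other mitotic lists and the S phase list together, the 20 genes called lower became 81 with the block, 49 with DESeq2, 54 with voom and 11 without the filter, and 0 to 35 when 1 library was left out. Under the block they were 53, 64, 26 and 75 without each pair, 70 with upper-quartile factors and 95 with the trend removed. With the block of samples 1 and 2 against samples 3 and 4, these counts were 40 members, 534 genes lower and 510 higher in the whole table, and 47 in the other lists. With samples 3 and 4 of each group summed to 1 library, all of these counts were 0, by edgeR with 3 libraries a group. The share of members with a CHR was 38% before the start only.

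The medians of the 58 genes and of their 4 role groups kept their sign in every alternative run. The sign turned for *Gtse1* (-0.0234 under the block without pair 3), for *S100a8* (-0.198 without IOX5 replicate 2, up to 0.755 without DMSO replicate 2) and for *Pttg1*. The log2 fold change of *Pttg1* was -0.0119 and -0.0083 without DMSO replicate 2 or 4, -0.0621 and -0.011 without IOX5 replicate 1 or 4 (highest 0.0619, without DMSO replicate 1), -0.0199 and -0.0444 under the block without pair 1 or 4, and -0.039 and -0.0395 with the trend removed, without and with the block. The causes were not tested. With 4 samples a group, calls that depended on single libraries and a block that the data support only in part, counts of called genes are less certain here than the signs. All alternatives reuse the same 8 libraries, so a sign kept in each of them is not independent support. Nor are the 58 genes independent of each other, as IOX5 2 was the lowest treated sample for 43 of them.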
